A study of Mus musculus with 27 samples.

Results

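The interaction between allergen and combustion products was examined in all 27 of the 27 lung libraries of the series. For each gene it is the change with combustion products in allergen-exposed mice minus the change with combustion products in mice without allergen, on the log2 scale. A value of 0 means that combustion products shifted a gene by the same fold in both settings, a positive value means a larger increase or a smaller decrease after allergen, and a negative value the opposite. Every library entered by the group at the end of its title, 24629 of the 56941 genes in the deposited table passed a filter on low counts and were tested, and the test was repeated in the 26 libraries without the one whose title number is 57. The title of the series asks whether combustion products change more in lungs with pre-existing asthma than in naive lungs, and the interaction is the direct test of that question for each gene.

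House dust mite extract carries proteases and microbial products, and repeated delivery to the airways of mice raises a type 2 response in which interleukins 4, 5 and 13 drive mucus production, eosinophil recruitment and antibody class switching. Smoke particles carry polycyclic aromatic hydrocarbons that bind the aryl hydrocarbon receptor, a transcription factor that induces cytochrome P450 genes such as Cyp1a1, and they are engulfed by macrophages, which call in neutrophils. Allergic lungs hold more recruited phagocytes and altered epithelium, so that a second exposure meets a different mixture of cells.

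Male wild type C57Bl/6 mice (genotype given as C57Bl/6J) of 7 to 8 weeks received 5 oropharyngeal instillations of 50 µl at intervals of 2 to 3 days, with 10 µg of house dust mite extract (HDM) or with phosphate-buffered saline (PBS) alone. At 24 h after the last of them they were given 1 instillation of 100 µl, either of combustion products (CP) at 2 mg per ml, which is 200 µg per mouse, or of saline (SAL). CP came from controlled burning of paper, plastic and plywood, and whole lungs were taken 24 h after this last instillation. The 4 groups were PBS_SAL (n = 7), which had neither agent, PBS_CP (n = 7), HDM_SAL (n = 6) and HDM_CP (n = 7), which had both. All mice shared strain, sex, age range and number of instillations, there was 1 dose of each agent and 1 time point, and the allergen schedule was short, which limits the model to early allergic inflammation. The labels do not say that each library is a separate mouse, so p-values measure the spread between these libraries.

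Polyadenylated RNA of whole lung was sequenced, and library totals of the deposited estimated counts ran from 56.3 M to 84.5 M, where M stands for mega. Levels are given here as counts per M (CPM), as lowest, median and highest library of a group, and differences as log2 values ± standard error. Lung markers were present in all libraries, with surfactant gene Sftpc between 24600 and 32800 transcripts per M (TPM) and club cell gene Scgb1a1 between 42000 and 132000 TPM. The heart gene Myl7 ranged from 1.23 to 45.8 TPM, so that the libraries held unequal amounts of heart or pulmonary vein muscle, and the basal cell marker Krt5 stayed between 0 and 0.339 TPM. One library stood apart before any test: PBS_CP 57 held 515 CPM of the mucus gene Clca1, against 4.10 to 11.1 CPM in the other 6 PBS_CP libraries. Its title puts it in PBS_CP and it was kept there, and results that rest on it are given with and without it. In whole lung a lower level can mean fewer cells of a type or less RNA per cell, and these cannot be told apart here.

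No gene passed the test of the interaction. Of 24629 genes, 0 (0%) had an adjusted p under 0.05 (edgeR quasi-likelihood F test, Benjamini-Hochberg), and the smallest adjusted p was 0.318. At an unadjusted p under 0.05 there were 1571 genes (6.38%), of which 874 were positive (3.55%) and 697 negative (2.83%). Without PBS_CP 57, 0 of 24582 genes were called, the smallest adjusted p was 0.912, and 1285 genes (5.23%) had an unadjusted p under 0.05, 754 positive (3.07%) and 531 negative (2.16%). Of the genes at that looser limit, 1159 met it with the same sign with and without the library. The interaction values below, from edgeR with 27 libraries unless another setting is named, therefore did not pass the test and are given as measured values. DESeq2 called 6 genes and edgeR without HDM_SAL 72 called 1, and they are named below.

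The components of the interaction were also small for most genes. Among 14852 genes whose mean log2 CPM reached 1, the median absolute log2 change with CP was 0.07 in HDM mice and 0.06 in PBS mice, and the median absolute interaction was 0.09. CP against saline gave 1 called gene in HDM mice (0.00406% of genes tested), Apol7c, and 2 in PBS mice (0.00812%), Apol7c and Cyp1a1, all higher with CP. DESeq2 called 192 and 32 genes for these comparisons. At an unadjusted p under 0.05 the counts were 2388 (9.7%) in HDM mice and 1343 (5.45%) in PBS mice. Without PBS_CP 57 the PBS counts were 2 called (0.00814%) and 1087 at the looser limit (4.42%). These counts were not tested against each other, and the interaction test is the comparison of the 2 settings. The CP changes of the same genes in the 2 settings come from different libraries, and over the 14852 genes their Pearson correlation was 0.132 and their Spearman correlation 0.0831, with the same sign in 52.1% of genes. Without PBS_CP 57 these values were 0.182, 0.144 and 54.4%. Genes are not independent replicates, all 4 groups were scaled together, and the values describe these libraries.

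**Figure D1:**
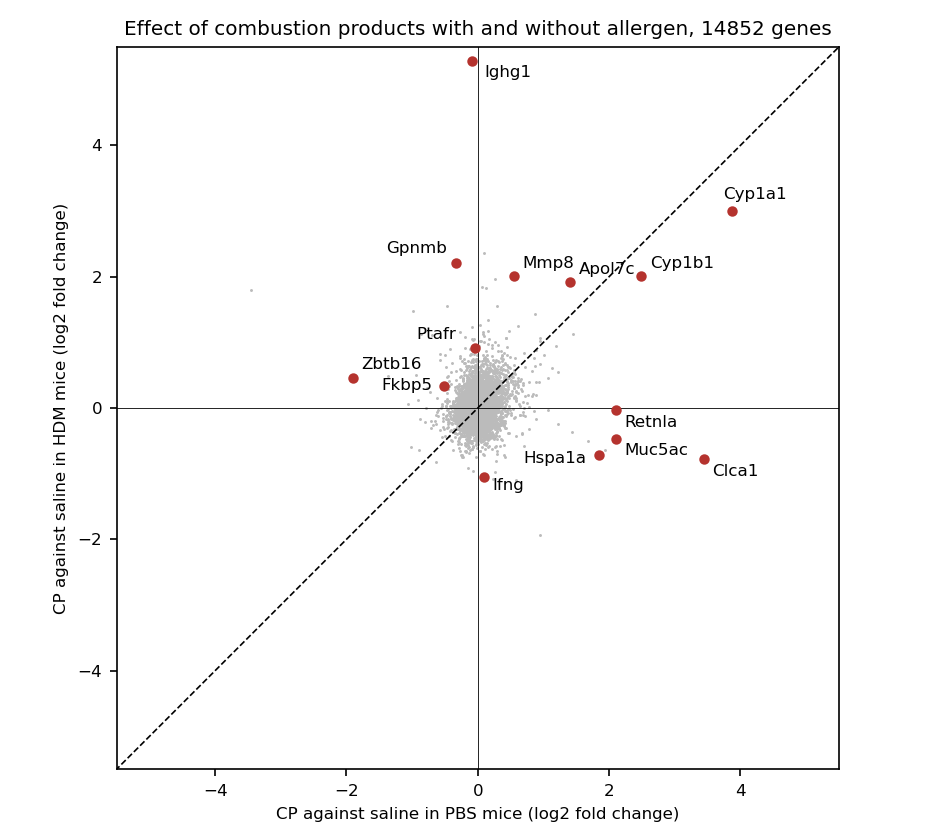
Log2 fold change of CP against saline in HDM mice (vertical axis) and in PBS mice (horizontal axis), 1 grey point per gene for 14852 genes, with named genes in red. The dashed line marks an interaction of 0: Cyp1a1 and Cyp1b1 lie to the upper right near it, Gpnmb, Mmp8 and Ighg1 lie above it, and Clca1, Muc5ac, Retnla and Hspa1a lie below it.

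Read in the other direction, the interaction asks whether CP changed the response to allergen. HDM against PBS gave 1339 called genes among saline mice (5.44%), with 786 higher (3.19%) and 553 lower (2.25%), and 1938 among CP mice (7.87%), with 1378 higher (5.6%) and 560 lower (2.27%). Without PBS_CP 57 the counts were 1264 (5.14%) and 1691 (6.88%). Over the 14852 genes the allergen changes without and with CP had a Pearson correlation of 0.712 and a Spearman correlation of 0.576, and 70.4% had the same sign. The higher count among CP mice does not show a difference in effect for any single gene, since none passed the edgeR interaction test. That test does not show the effects to be alike either.

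The data limited how large an undetected interaction could be. Among the 14852 genes whose mean log2 CPM reached 1, the standard error of the interaction had a median of 0.12 and quartiles of 0.08 and 0.18, and the 95% interval reached a median of 0.24 to either side of the value. The interval lay wholly between -1 and 1 for 14105 of these genes (94.97%) and for 16056 of all genes tested (65.2%). For those genes a difference between the settings of 1 or more on the log2 scale falls outside the interval. The spread between libraries was wider after allergen: the median within-group SD of log2 CPM was 0.13 in PBS_SAL, 0.13 in PBS_CP, 0.16 in HDM_SAL and 0.16 in HDM_CP.

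Among the 1571 genes at an unadjusted p under 0.05, the group mean farthest from the mean of the other three was most often a high HDM_CP. That held for 458 genes (29.2%), against 4099 of all 24629 genes (16.6%). A low HDM_CP stood apart in 241 (15.3% against 15.4%), a high HDM_SAL in 208 (13.2% against 13.1%) and a low PBS_SAL in 188 (12% against 14.4%). A high or low PBS_CP was the outlying group in 60 and 76 genes (3.82% and 4.84%, against 7.78% and 8.39% over all genes). The 2 shares in each pair share genes and libraries and were not tested. In 5 genes (0.0203%) all 7 HDM_CP libraries lay above all 20 others: the sugar transporter gene Slc2a6, Surf4, Spcs3, Gm8221 and Eno1b. For Slc2a6 the HDM_CP range was 7.27 to 10.9 CPM (median 8.27), against 5.13 to 6.84 in HDM_SAL, 3.78 to 6.33 in PBS_CP and 3.77 to 5.44 in PBS_SAL, and its interaction was 0.52 ± 0.18 (unadjusted p = 0.00794). In 0 genes (0%) did all HDM_CP libraries lie below all others. The interaction was 0.36 ± 0.12 for Eno1b, 0.13 ± 0.06 for Surf4, 0.11 ± 0.06 for Spcs3 and -0.12 ± 0.58 for Gm8221. A place above all other libraries thus did not mean a positive interaction in every case. These 5 genes were chosen after their values were seen.

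Ptafr (chromosome 4, 132291378 to 132309994 on GRCm39), the receptor for platelet-activating factor on neutrophils and macrophages, lay between 6.42 and 9.21 CPM in PBS_SAL (median 8.28) and between 6.17 and 9.32 in PBS_CP (median 8.01). It lay between 6.07 and 11.7 in HDM_SAL (median 9.69) and between 10.4 and 26.5 in HDM_CP (median 17.1). In 6 of 7 HDM_CP libraries the level was above all 20 others. For all 7 the share over all genes was 0.0203%. For fewer than 7 it was not measured, so that such counts, here and below, only describe the named genes. The CP change was 0.92 ± 0.17 in HDM mice and -0.04 ± 0.17 in PBS mice, and the interaction was 0.97 ± 0.24 (95% interval 0.47 to 1.46, unadjusted p = 0.000396, edgeR adjusted p = 0.694). Values within runs of title numbers are differences of group means of log2 CPM, here and below. For Ptafr they were 0.79, 0.98 and 0.98 within 45 to 64, 66 to 81 and 96 to 105. These runs hold 1 to 3 libraries of each group, with 1 HDM_SAL library in 66 to 81. Ptafr, like Zbtb16 below, was named by its small p in the same libraries, so like values in the runs are not independent support.

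Hrh2 (chromosome 13, 54346148 to 54390199), the histamine H2 receptor gene, had a median of 4.23 CPM in HDM_CP (3.48 to 4.83). The medians were 2.42 in HDM_SAL (1.71 to 3.83), 2.89 in PBS_CP (2.07 to 3.20) and 3.01 in PBS_SAL (2.15 to 3.29), so that 1 HDM_SAL library overlapped HDM_CP. Its interaction was 0.82 ± 0.20 (0.40 to 1.24). Padi4, the enzyme that converts histone arginines to citrulline in neutrophils, was at 4.48 to 7.49 CPM in HDM_CP and 2.42 to 4.37 in HDM_SAL, with no overlap, and its interaction was 0.83 ± 0.21 (0.40 to 1.25). Snx20, a leukocyte sorting nexin, also had no overlap between HDM_CP (13.7 to 24.5 CPM) and HDM_SAL (9.46 to 13.5), but PBS_SAL 105 was at 18.6 CPM. Its interaction was 0.71 ± 0.18 (0.34 to 1.08). Complete separation of HDM_CP above HDM_SAL was seen in 26 of 24629 genes (0.106%) and below it in 13 (0.0528%). PBS_CP lay wholly above PBS_SAL in 15 (0.0609%).

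**Figure D2:**
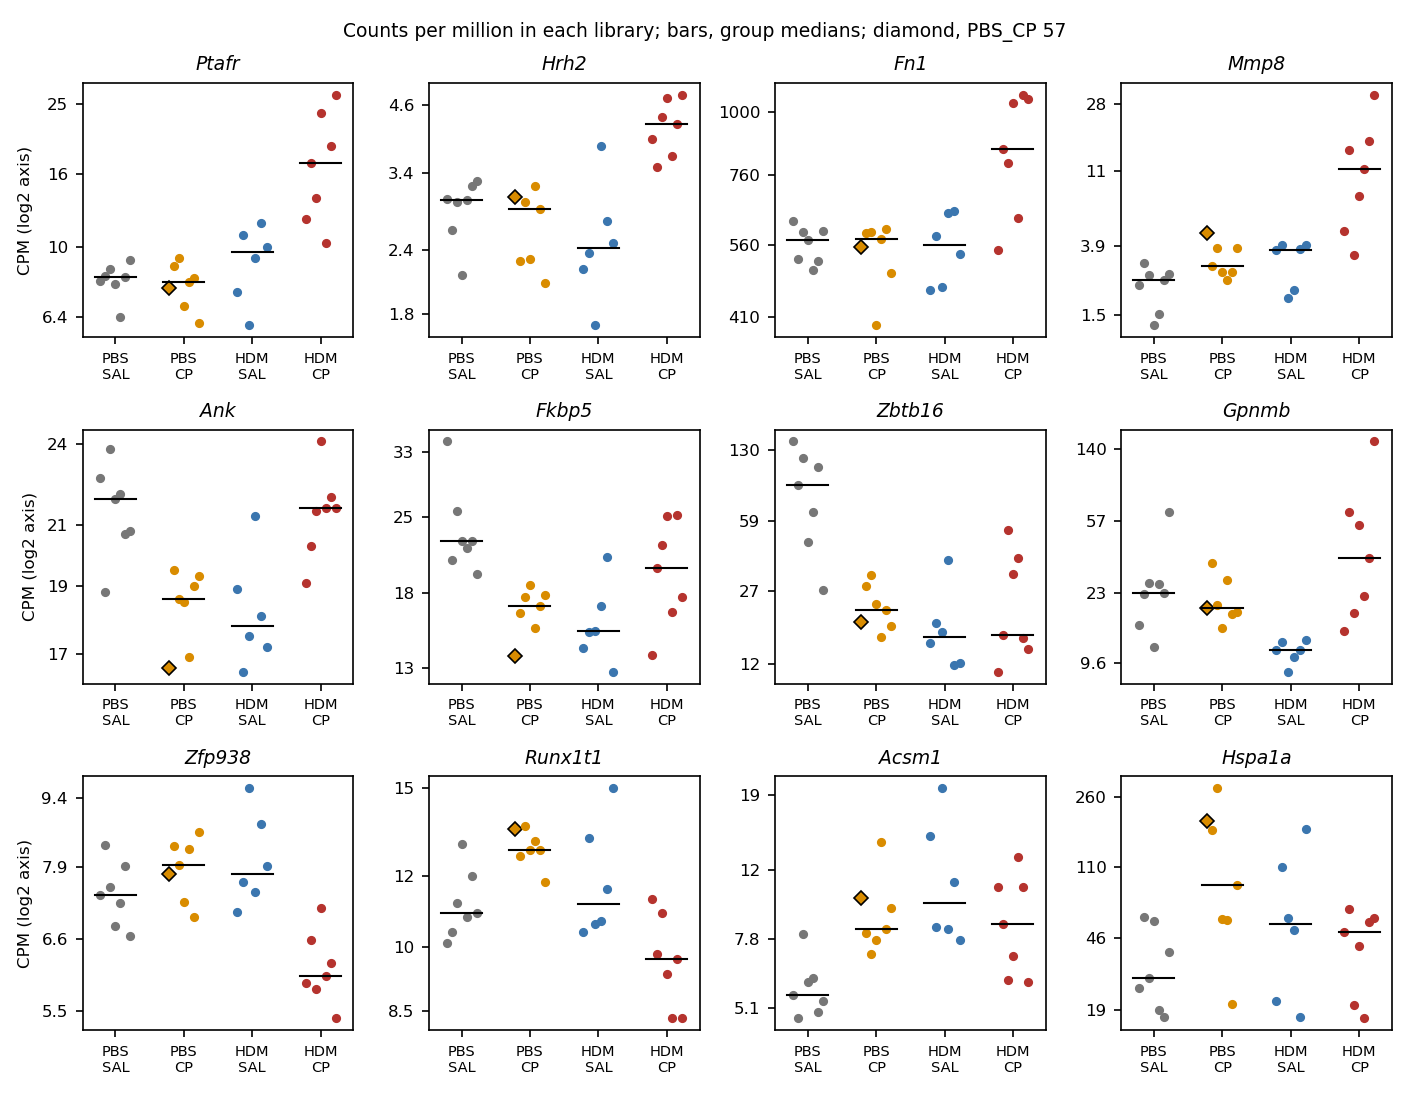
Level of 12 genes in every library in CPM on a log2 axis, by group; bars are group medians and the diamond is PBS_CP 57. In the upper row the HDM_CP median lies highest, with 6 of 7 libraries above all others for Ptafr and Mmp8, while Ank, Fkbp5 and Zbtb16 have their highest median in PBS_SAL and lower ones in PBS_CP and HDM_SAL, and Zfp938 and Runx1t1 have their lowest in HDM_CP.

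The neutrophil list showed the largest positive median of the 35 gene lists. Of 23 listed genes 19 were tested, 0 were called, 15 had a positive interaction, 9 were positive and 1 negative at an unadjusted p under 0.05 (6.38% of all genes were at that limit in either direction), and the median interaction was 0.89, against -0.0012 over all genes. Without PBS_CP 57 the median was 0.87. Genes of 1 cell type vary together with its share in the tissue, so members of a list are not independent. Counts of members, here and in the lists below, are therefore descriptions and not tests. All lists were chosen with earlier results of these data known. The summed level of the list was 314 to 700 CPM in HDM_CP (median 471), 262 to 352 in HDM_SAL, 263 to 356 in PBS_CP and 214 to 315 in PBS_SAL. Mmp8 (chromosome 9, 7558457 to 7568486), the neutrophil collagenase, was at 3.43 to 31.9 CPM in HDM_CP (median 11.3) and at 1.89 to 3.99 in HDM_SAL (median 3.73). It was at 2.44 to 4.71 in PBS_CP and 1.30 to 3.10 in PBS_SAL, and 6 of 7 HDM_CP libraries were above all others. Its interaction was 1.46 ± 0.49 (0.45 to 2.46).

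Of the neutrophil list, 4 members were negative: G0s2 (-0.53 ± 0.23, the one at an unadjusted p under 0.05), Hdc (-0.16 ± 0.19) and the formyl peptide receptor genes Fpr1 (-0.29 ± 0.52) and Fpr2 (-0.06 ± 0.31). Among the positive members, the alarmin genes S100a8 and S100a9 gave 1.14 ± 0.45 and 1.11 ± 0.43, the decoy receptor gene Il1r2 1.30 ± 0.46, the growth factor receptor gene Csf3r 0.92 ± 0.34 and the chemokine receptor gene Cxcr2 0.99 ± 0.42. The C-type lectin genes Clec4d and Clec4e gave 1.06 ± 0.33 and 1.00 ± 0.40. For each of these the CP change was between 0.80 and 1.35 in HDM mice and between -0.12 and 0.10 in PBS mice. The granule genes Camp, Mpo and Elane were too low to be tested, as was Stfa2.

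Cytokines and chemokines that act on neutrophils showed a mixed picture. Among acute inflammatory mediators, neutrophil chemokines included, 16 of 21 tested members were positive, with a median of 0.35, and 1 was positive and 1 negative at an unadjusted p under 0.05. Of all 24629 genes 12258 were positive, and 3.55% were positive and 2.83% negative at that limit. Il1rn, which encodes the antagonist of the interleukin-1 receptor, was at 4.69 to 24.7 CPM in HDM_CP (median 15.8) and at 4.36 to 8.83 in HDM_SAL (median 5.36). Its PBS_CP range was 4.25 to 8.69 and its PBS_SAL range 2.91 to 7.84, and 5 of 7 HDM_CP libraries lay above all others. The interaction was 1.18 ± 0.40 (0.36 to 2.01). The neutrophil chemokine genes Cxcl1 and Cxcl5 had wide intervals, -0.38 to 1.40 and -1.15 to 2.05, and Il6 gave -0.66 ± 0.66 (-2.002 to 0.69). Ptgs2, the inducible prostaglandin synthase, was the negative member, at -0.68 ± 0.32.

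In the list of monocyte and recruited macrophage genes 20 of 23 members had a positive interaction, against 12258 of all 24629 genes. At an unadjusted p under 0.05, 9 were positive and 1, Cd9, negative, limits that 3.55% and 2.83% of all genes met, and the median was 0.41 (0.42 without PBS_CP 57). The same shares over all genes apply to each list below. The median CP change of the list was 0.61 in HDM mice and 0.0047 in PBS mice. Gpnmb (chromosome 6, 49013480 to 49047863), a transmembrane glycoprotein of lipid-laden and phagocytic macrophages, was at 14.4 to 153.7 CPM in HDM_CP (median 35.6) and at 8.63 to 12.9 in HDM_SAL (median 11.4), with no overlap. It was at 15.0 to 33.7 in PBS_CP (median 19.1) and 11.8 to 63.6 in PBS_SAL (median 23.1), so that HDM_SAL was the low group and only 2 of 7 HDM_CP libraries exceeded all others. The interaction was 2.53 ± 0.61 (1.27 to 3.80), made of 2.21 ± 0.46 in HDM mice and -0.32 ± 0.42 in PBS mice.

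The osteopontin gene Spp1 (1.06 ± 0.41), the lipid receptor gene Trem2 (1.02 ± 0.46), Ms4a7 (1.33 ± 0.53), the F4/80 antigen gene Adgre1 (0.95 ± 0.38), the lysosomal gene Cd68 (0.61 ± 0.25) and the growth factor receptor gene Csf1r (0.26 ± 0.10) were further positive members of the macrophage list. Resident alveolar macrophage genes gave 11 of 14 positive and a median of 0.21, led by Atp6v0d2, a proton pump subunit, at 0.89 ± 0.35. In the list of alternative macrophage activation 10 of 12 were positive, with 2 positive and 1 negative at an unadjusted p under 0.05. The negative members were Chil4 (-2.19 ± 1.16) and Retnla (-2.14 ± 0.82), which were -0.27 and -0.81 without PBS_CP 57. Arg1, the arginase of alternatively activated macrophages, was at 4.25 to 95.6 CPM in HDM_CP, 3.08 to 24.4 in HDM_SAL, 1.07 to 3.42 in PBS_CP and 0.90 to 2.18 in PBS_SAL. Its interaction was 1.71 ± 0.86 (-0.07 to 3.48). The CP change of Arg1 was 1.96 ± 0.61 in HDM mice and 0.26 ± 0.62 in PBS mice.

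Of 14 complement genes 13 were positive and 6 had an unadjusted p under 0.05, with a median of 0.38. The anaphylatoxin receptor gene C3ar1 gave 1.30 ± 0.44 (0.39 to 2.20), although its HDM_CP range of 8.37 to 30.3 CPM overlapped both HDM_SAL (8.35 to 19.6) and the library PBS_SAL 105, at 22.9. The C1q subunit genes C1qa (0.75 ± 0.35) and C1qb (0.81 ± 0.36) were similar in sign. All 9 MHC class II genes were positive (median 0.36), and 3 reached an unadjusted p under 0.05: H2-Eb1 (0.50 ± 0.22), H2-Ab1 (0.42 ± 0.20) and the invariant chain gene Cd74. Without PBS_CP 57 only 1 of the 9 did. Dendritic cell genes were positive in 18 of 20 (median 0.27) and type I interferon response genes in 16 of 18 (median 0.19), with 0 of either at an unadjusted p under 0.05.

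Matrix remodelling genes were positive in 22 of 24 tested members, 8 of them at an unadjusted p under 0.05 and 0 negative at that limit, with a median of 0.30 (0.29 without PBS_CP 57). Spp1 and Mmp9 stand in this list and also in a phagocyte list. Fn1 (chromosome 1, 71624679 to 71692359), which encodes fibronectin, was at 549 to 1077 CPM in HDM_CP (median 851). It was at 461 to 649 in HDM_SAL (median 561), 395 to 599.9 in PBS_CP (median 575) and 502 to 624 in PBS_SAL (median 572). In 5 of 7 HDM_CP libraries it was above all others, and the other three groups had nearly equal medians. The CP change was 0.62 ± 0.13 in HDM mice and -0.05 ± 0.12 in PBS mice, and the interaction was 0.67 ± 0.18 (0.30 to 1.04). Mmp12, the macrophage elastase, gave 2.26 ± 1.02, and Mmp13 1.58 ± 0.69 with HDM_CP between 1.14 and 19.4 CPM. The collagen gene Col1a2 gave 0.45 ± 0.20, the growth factor gene Tgfb1 0.24 ± 0.10 and the protease inhibitor gene Timp1 0.65 ± 0.41 (-0.20 to 1.504).

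Lymphocyte and eosinophil genes were low in whole lung, and their values rest on few counts in some libraries. In the list of regulatory and type 2 helper T cell genes 12 of 13 were positive and 6 had an unadjusted p under 0.05, with a median of 0.67 (0.65 without PBS_CP 57). Foxp3, the lineage factor of regulatory T cells, was at 1.89 to 5.32 CPM in HDM_CP (median 2.54) and at 1.02 to 2.93 in HDM_SAL (median 1.69). Its interaction was 1.00 ± 0.36 (0.26 to 1.73). The checkpoint gene Ctla4 gave 0.96 ± 0.38, the chemokine receptor gene Ccr4 1.23 ± 0.49 and the interleukin-33 receptor gene Il1rl1 0.57 ± 0.21. Of 7 tested eosinophil genes 6 were positive, but the granule gene Prg2 lay between 0 and 3.73 CPM in all 27 libraries and Epx and Prg3 were too low to test. The eotaxin receptor gene Ccr3 gave 3.76 ± 1.22 and the lipoxygenase gene Alox15 1.99 ± 0.84.

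Of 12 tested type 2 cytokine and chemokine pathway genes 7 were positive and 5 negative, the median was 0.21, and 1, Il1rl1, was at an unadjusted p under 0.05. Intervals were -0.43 to 1.93 for the eosinophil chemokine gene Ccl11, -0.86 to 2.87 for Ccl24, -0.72 to 1.95 for Ccl8, -1.32 to 1.12 for Ccl17 and -2.74 to 1.59 for Il13, and the last 2 of these leave room for differences of more than 1 in either direction. The level of Il13 did not exceed 2.15 CPM in any library.

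Ighg1 varied widely among the HDM_CP libraries. This gene, the constant region of IgG1, was at 0.97, 1.87 and 2.11 CPM in 3 HDM_CP libraries and at 26.5, 43.5, 88.7 and 447 in the other four. It was at 1.20 to 3.86 in HDM_SAL, 0.31 to 1.05 in PBS_CP and 0.24 to 1.08 in PBS_SAL. The interaction was 5.38 ± 1.58 (2.12 to 8.64). The plasma cell gene Jchain gave 2.47 ± 1.08 and the B cell chemokine gene Cxcl13 1.70 ± 0.61. Most B and plasma cell genes had smaller values: 13 of 16 were positive, 3 of them at an unadjusted p under 0.05, with a median of 0.19. The median summed level of that list was 946 CPM in HDM_CP, 887 in HDM_SAL, 927 in PBS_CP and 1011 in PBS_SAL. Ighg2b gave 5.26 ± 1.40, but with HDM_CP at 1.56 to 25.4 CPM, below PBS_SAL 81 and 105, at 79.1 and 103. DESeq2, an alternative count test, called 6 genes for the interaction, and Ighg1 (adjusted p = 0.021) and Ighg2b (adjusted p = 0.05 after rounding up) were among them. Ighg2b was named after its values were seen.

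Of the 79 genes named by rule, 30 had a high HDM_CP as the outlying group. The lowest HDM_CP library was HDM_CP 96 in 12, HDM_CP 45 in 10 and HDM_CP 66 in 4 of the 30, and the highest was HDM_CP 98 in 12 and HDM_CP 67 in 9. For Gpnmb the HDM_CP libraries 45, 66 and 96 stood at 14.4, 18.1 and 22.2 CPM, and 49, 67, 97 and 98 at 63.9, 54.0, 35.6 and 154. Leaving out HDM_CP 45 gave 2246 genes at an unadjusted p under 0.05, the most of any library left out, and leaving out HDM_SAL 54 gave the fewest, 1151. Neither fit called a gene.

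**Figure D3:**
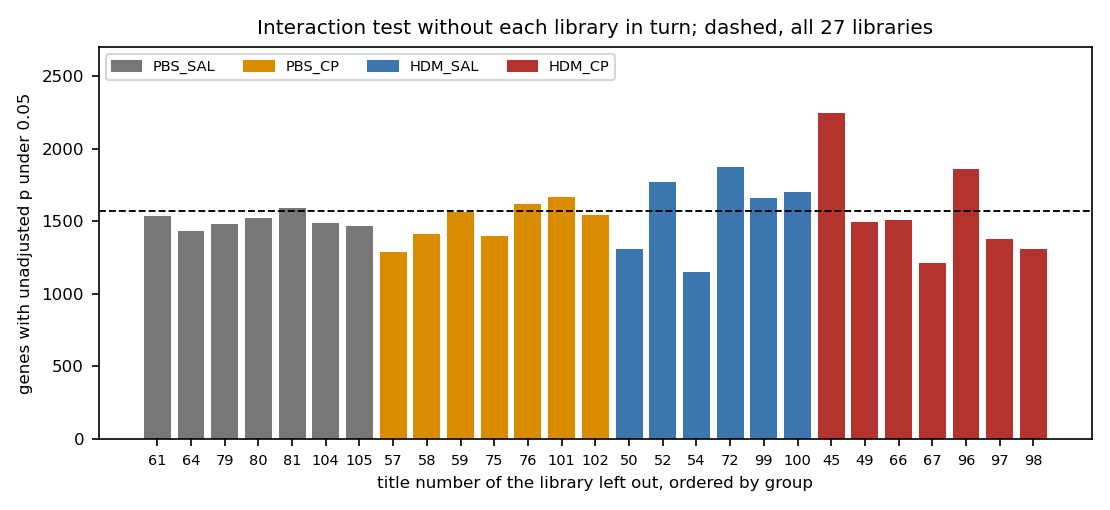
Number of genes with an unadjusted interaction p under 0.05 when the library on the horizontal axis is left out, coloured by group. The dashed line is the count of 1571 with all 27 libraries, and the counts run from 1151 without HDM_SAL 54 to 2246 without HDM_CP 45.

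Some genes with a positive interaction had a higher median in PBS_SAL than in either single exposure, with HDM_CP medians that ranged from near PBS_SAL to near the single exposures. Ank (chromosome 15, 27466763 to 27594995), a transporter that controls extracellular pyrophosphate, had the smallest p of all genes (unadjusted p = 1.29e-05, adjusted p = 0.318 in edgeR). It was at 18.8 to 23.8 CPM in PBS_SAL (median 21.9), 16.6 to 19.5 in PBS_CP (median 18.6), 16.5 to 21.3 in HDM_SAL (median 17.8) and 19.1 to 24.1 in HDM_CP (median 21.6). The groups with neither or both agents overlapped each other almost fully. The CP change was -0.23 ± 0.06 in PBS mice and 0.23 ± 0.06 in HDM mice, and the interaction was 0.47 ± 0.09 (0.29 to 0.65). Ank was the gene called without HDM_SAL 72 (0.515 ± 0.0849, edgeR adjusted p = 0.044), and DESeq2 called it with 27 libraries (adjusted p = 0.005) and with 26 (adjusted p = 0.021).

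Fkbp5 (chromosome 17, 28618068 to 28736501), a glucocorticoid-induced co-chaperone of the glucocorticoid receptor, was at 19.5 to 34.6 CPM in PBS_SAL (median 22.5). It was at 13.7 to 18.7 in PBS_CP (median 17.0), 12.8 to 21.0 in HDM_SAL (median 15.3) and 13.8 to 25.2 in HDM_CP (median 20.0). All PBS_CP libraries were below all PBS_SAL libraries, which was so in 34 of 24629 genes (0.138%). The interaction was 0.85 ± 0.19 (0.47 to 1.24), and DESeq2 called it (adjusted p = 0.0496) but not without PBS_CP 57.

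Zbtb16 (chromosome 9, 48565597 to 48747522), a zinc finger transcription factor gene, was at 27.2 to 143 CPM in PBS_SAL (median 88.2) and at 16.2 to 32.2 in PBS_CP (median 21.8). It was at 11.9 to 38.3 in HDM_SAL (median 16.2) and 11.0 to 53.3 in HDM_CP (median 16.5). The HDM_CP median lay at the level of the single exposures and below every PBS_SAL library. The CP change was -1.90 ± 0.38 in PBS mice and 0.46 ± 0.38 in HDM mice. From these the edgeR interaction was 2.36 ± 0.54 (1.25 to 3.47). Differences of group means of log2 CPM, another measure, were 1.77, 1.99 and 2.20 within the 3 runs of title numbers. DESeq2 called Zbtb16 with 27 libraries (adjusted p = 0.0496) and not with 26. Of 14 glucocorticoid response genes 12 were positive, 3 of them at an unadjusted p under 0.05 (the third was Map3k6, 0.60 ± 0.20), and the median was 0.17. Tsc22d3, a classic target, gave 0.41 ± 0.25, and Per1 0.59 ± 0.40.

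Other genes with a higher median in PBS_SAL than in either single exposure were Ndrg1, a stress-responsive gene (0.47 ± 0.11), the semaphorin gene Sema7a (0.49 ± 0.12), Coro2a (0.45 ± 0.12), Sap30l (0.34 ± 0.09) and Herpud1, a component of endoplasmic reticulum protein degradation (0.28 ± 0.12). The HDM_CP medians of Ndrg1 (37.6 CPM, against 44.3 in PBS_SAL and 36.9 in PBS_CP) and Sap30l (18.6, against 20.5 and 18.3) were close to PBS_CP. For Herpud1 the HDM_CP median (114 CPM) was close to HDM_SAL (111), with PBS_CP at 145 and PBS_SAL at 161. Sema7a was at 109.8 to 126 CPM in PBS_SAL, 90.2 to 120.3 in PBS_CP, 74.0 to 108 in HDM_SAL and 80.0 to 122 in HDM_CP, and 6 of 7 HDM_CP libraries were above all HDM_SAL libraries. Itm2a, a gene of activated T cells, gave 0.53 ± 0.13 with HDM_SAL as the low group.

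Clock genes included values of both signs. Arntl, also known as Bmal1 and the core activator of the circadian clock, was at 3.56 to 11.4 CPM in PBS_SAL (median 6.64), 9.28 to 17.0 in PBS_CP (median 12.1), 8.22 to 25.3 in HDM_SAL (median 14.7) and 7.43 to 19.2 in HDM_CP (median 17.0). The CP change was 0.86 ± 0.25 in PBS mice and -0.04 ± 0.26 in HDM mice, and the interaction was -0.90 ± 0.36 (-1.64 to -0.16). Its partners Npas2 (-0.84 ± 0.40) and Clock (-0.23 ± 0.11) were negative, and Cry1, a repressor, was positive (0.40 ± 0.18). Over the list 11 of 16 tested genes were positive, the median was 0.27, and 4 genes were at an unadjusted p under 0.05, or 1 without PBS_CP 57. The time of day at which lungs were taken is not given in the labels, and its part in these values was not tested.

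Acsm1 (chromosome 7, 119206249 to 119261738), a mitochondrial acyl-CoA synthetase, had its lowest median in PBS_SAL, at 4.79 to 8.07 CPM (median 5.54). It was at 7.13 to 14.2 in PBS_CP (median 8.33), 7.79 to 19.9 in HDM_SAL (median 9.75) and 5.98 to 13.0 in HDM_CP (median 8.59). The interaction was -1.07 ± 0.30 (-1.67 to -0.46). Vwa7 (-0.56 ± 0.15) and the kinase gene Mapk6 (-0.25 ± 0.07) also had their lowest median in PBS_SAL. Cholesterol synthesis genes were mostly negative (17 of 20, median -0.14), and Idi1, an isoprenoid enzyme, gave -0.31 ± 0.14. Mitotic cell cycle genes were split, 14 positive and 16 negative (median -0.02), with Cdk1 at -0.63 ± 0.36 (-1.36 to 0.10).

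Other genes had their outlying group mean in a low HDM_CP. Zfp938 (chromosome 10, 82060684 to 82077114), a zinc finger gene, was at 5.40 to 7.13 CPM in HDM_CP (median 6.00), 7.05 to 9.64 in HDM_SAL (median 7.76), 6.97 to 8.62 in PBS_CP (median 7.93) and 6.64 to 8.35 in PBS_SAL (median 7.36). The HDM_CP median was below every library of the other three groups, and the interaction was -0.48 ± 0.12 (-0.72 to -0.25). Runx1t1, a transcriptional corepressor gene, was at 8.35 to 11.3 CPM in HDM_CP (median 9.70) and at 10.4 to 15.0 in HDM_SAL (median 11.2). PBS_CP was its highest group by median, at 12.8, and the interaction was -0.50 ± 0.12 (-0.75 to -0.25). Lurap1l (-0.42 ± 0.11), the RNA-binding protein gene Msi2 (-0.29 ± 0.08), the G protein regulator gene Rgs11 (-0.51 ± 0.15), the thrombospondin gene Thbs3 (-0.32 ± 0.10) and the mitochondrial sirtuin gene Sirt4 (-0.31 ± 0.09) were also in this class. Ifng, the type 1 cytokine, was at 0.24 to 0.49 CPM in HDM_CP and 0.24 to 1.69 in HDM_SAL, with an interaction of -1.15 ± 0.50 (-2.17 to -0.13). Platelet and megakaryocyte genes were negative in 7 of 10, with a median of -0.29.

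The inducible Hsp70 genes Hspa1a and Hspa1b had large negative interactions, and their upstream sequences are shown here. The 2 genes are near-copies whose reads the counting could have shared, and sequences before the start do not bear on that. The windows are the 250 bases before the RefSeq start on GRCm38.p6, 5′ to 3′ on the gene's strand, at chr17:34972157-34972406, minus strand for Hspa1a and chr17:34959239-34959488, minus strand for Hspa1b. Capitals mark GAANNTTC, the core pair of a heat shock element, read on both strands (the motif is its own reverse complement).
Hspa1a: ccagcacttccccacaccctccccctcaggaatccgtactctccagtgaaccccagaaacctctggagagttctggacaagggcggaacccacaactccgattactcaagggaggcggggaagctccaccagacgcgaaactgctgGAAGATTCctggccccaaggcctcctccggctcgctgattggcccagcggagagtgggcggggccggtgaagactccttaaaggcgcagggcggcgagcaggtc
Hspa1b: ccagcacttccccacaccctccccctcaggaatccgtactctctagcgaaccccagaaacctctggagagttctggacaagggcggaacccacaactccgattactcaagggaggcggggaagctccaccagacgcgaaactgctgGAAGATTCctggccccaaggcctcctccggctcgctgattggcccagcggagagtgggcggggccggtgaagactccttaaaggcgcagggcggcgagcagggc
The windows are the same at 247 of 250 positions, and the motif starts 104 bases before the start in both. It occurred in 1833 of 27025 promoter windows of this length (6.78%) and in 5 of the 10 heat shock list members that had a RefSeq window. A match is a description of letters and not a binding site.

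Hspa1a (chromosome 17, 35188166 to 35191132 on GRCm39) was at 20.6 to 291 CPM in PBS_CP (median 88.0), 17.5 to 59.5 in PBS_SAL (median 28.4), 17.6 to 176 in HDM_SAL (median 55.0) and 17.2 to 65.7 in HDM_CP (median 49.5). The 3 highest PBS_CP libraries were 57, 58 and 59, at 192, 172 and 291 CPM, with 1 HDM_SAL library, at 176, between them, and they are the 3 PBS_CP libraries of the run 45 to 64. The interaction was -2.55 ± 0.77 (-4.14 to -0.96), and -2.42 ± 0.79 without PBS_CP 57. Differences of group means of log2 CPM were -2.31, -1.69 and -1.24 within the 3 runs. Hspa1b gave -2.58 ± 0.78. Over the whole heat shock list the values were smaller: of 12 genes 8 were negative, the median was -0.07, and Hsp90aa1 gave -0.28 ± 0.17 and Hspa8 0.18 ± 0.14.

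The upstream sequences of the aryl hydrocarbon receptor targets Cyp1a1 and Cyp1b1 are shown because the CP change of both genes was positive in both settings. The 250 bases before the RefSeq start of Cyp1a1 (chr9:57697363-57697612, plus strand) and Cyp1b1 (chr17:79715062-79715311, minus strand), on GRCm38.p6 and 5′ to 3′, each held 1 match to GCGTG, the core of the receptor's response element, searched on both strands and in capitals here, where the Cyp1b1 match is on the opposite strand and reads CACGC.
Cyp1a1: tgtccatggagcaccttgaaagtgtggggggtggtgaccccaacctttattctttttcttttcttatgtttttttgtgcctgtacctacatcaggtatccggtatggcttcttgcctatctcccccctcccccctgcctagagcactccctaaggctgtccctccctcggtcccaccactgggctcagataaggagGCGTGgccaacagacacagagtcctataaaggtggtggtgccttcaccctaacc
Cyp1b1: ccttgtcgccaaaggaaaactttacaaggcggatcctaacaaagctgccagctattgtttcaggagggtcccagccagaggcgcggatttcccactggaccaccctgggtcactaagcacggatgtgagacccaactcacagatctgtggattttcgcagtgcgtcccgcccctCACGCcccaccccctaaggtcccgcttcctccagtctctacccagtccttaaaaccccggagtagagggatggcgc
This short core was present in 7624 of 27025 windows (28.2%) and in 5 of 10 list members with a window, and the matches lie 54 and 76 bases before the start.

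Cyp1a1 (chromosome 9, 57595211 to 57611107), the cytochrome P450 that oxidizes polycyclic hydrocarbons, was at 16.7 to 33.7 CPM in PBS_SAL (median 26.6) and 41.4 to 1028 in PBS_CP (median 254). It was at 16.3 to 60.2 in HDM_SAL (median 25.4) and 59.8 to 570.5 in HDM_CP (median 269). The spread among CP mice was wide in both settings, and 1 HDM_CP library fell below the highest HDM_SAL library. The CP change was 3.87 ± 0.62 in PBS mice and 3.00 ± 0.64 in HDM mice, and the interaction was -0.87 ± 0.81, with an interval of -2.53 to 0.79 that does not show the responses to be alike. Cyp1b1 gave -0.48 ± 0.62 (-1.76 to 0.80) from changes of 2.49 and 2.01. Nqo1, a quinone reductase under both this receptor and Nrf2, gave -0.67 ± 0.40 (-1.49 to 0.14), and Tiparp, a feedback inhibitor, 0.05 ± 0.09 (-0.13 to 0.24). Of 13 listed targets 9 had a negative interaction, with a median of -0.45, and 0 reached an unadjusted p under 0.05. The median CP change of the list was 0.17 in HDM mice and 0.37 in PBS mice, and the glutathione transferase gene Gsta1 was negative in both, at -0.71 and -0.12. Nrf2 and antioxidant genes had a median of -0.13 (11 of 16 negative, 0 at that limit).

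Apol7c (chromosome 15, 77409052 to 77417516), which encodes a member of the apolipoprotein L family, was the gene called for CP in both settings. It was at 1.81 to 2.64 CPM in PBS_SAL (median 2.10), 4.07 to 8.54 in PBS_CP (median 5.34), 2.20 to 4.03 in HDM_SAL (median 3.21) and 7.03 to 20.2 in HDM_CP (median 10.5), with no overlap between CP and saline in either setting. The interaction was 0.51 ± 0.30 (-0.10 to 1.13), from 1.92 ± 0.22 in HDM mice and 1.41 ± 0.21 in PBS mice. In 4 of 7 HDM_CP libraries it was above all 20 others.

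**Figure D4:**
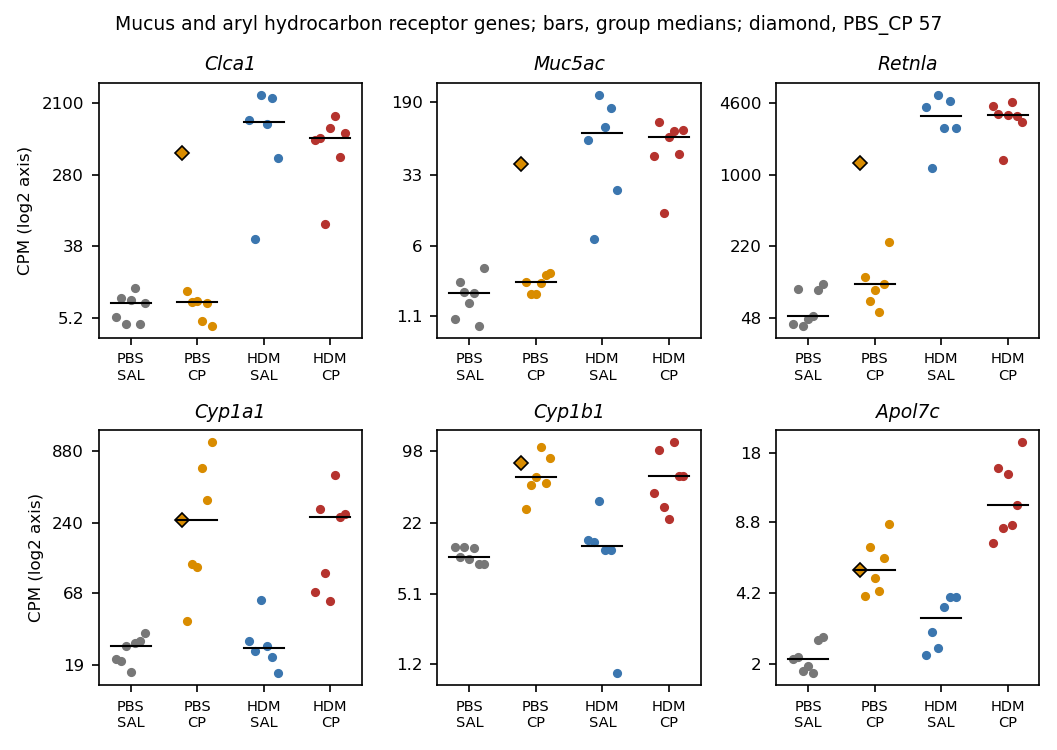
Level in every library in CPM on a log2 axis of 3 genes of the allergic airway (upper row) and 3 genes with large CP changes (lower row), by group, with bars for group medians and a diamond for PBS_CP 57. The diamond stands apart from the other 6 PBS_CP libraries for Clca1, Muc5ac and Retnla and lies among them for Cyp1a1, Cyp1b1 and Apol7c.

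Large negative values of mucus genes with 27 libraries rest in large part on PBS_CP 57. Clca1 (chromosome 3, 144709578 to 144738537), a secreted regulator of goblet cells, was at 4.34 to 11.9 CPM in PBS_SAL (median 7.87), 4.10 to 515 in PBS_CP (median 8.12), 46.4 to 2647 in HDM_SAL (median 1224) and 71.2 to 1443 in HDM_CP (median 782). Its interaction was -4.22 ± 1.45 with 27 libraries and -0.78 ± 0.85 without PBS_CP 57. Muc5ac, a gel-forming mucin, went from -2.57 ± 1.09 to -0.83 ± 0.81, and Retnla, a resistin-like product of the allergic lung, from -2.14 ± 0.82 to -0.81 ± 0.50. Muc5b went from -1.46 ± 0.84 to -0.76 ± 0.75. PBS_CP 57 is not in the run 66 to 81, which has 1 HDM_SAL library. Differences of mean log2 CPM there were -1.82 for Clca1, -1.94 for Muc5ac and -2.18 for Muc5b. Within 96 to 105, also without PBS_CP 57, they were -0.241, -0.417 and -0.372. Over the goblet cell and mucus list 13 of 16 genes were negative, 4 of them at an unadjusted p under 0.05, with a median of -0.91. Without the library the median was -0.30 and 0 genes were at that limit. The median CP change of the list in HDM mice, which does not involve that library, was -0.38.

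Lists of other airway cells and of heart muscle had negative medians. All 22 ciliated cell genes had a negative interaction (median -0.42, 4 at an unadjusted p under 0.05, and -0.36 with 1 at that limit without PBS_CP 57). The member of smallest p was the cilium gene Sntn, at -0.66 ± 0.28. Their summed level was 805 to 1219 CPM in HDM_CP and 877 to 1639 in HDM_SAL, against 924 to 1188 in PBS_CP and 846 to 1213 in PBS_SAL. Of 14 club cell genes 13 were negative (median -0.48, 0 at an unadjusted p under 0.05, and -0.39 with 1 at that limit without PBS_CP 57). The most negative club cell value, -1.46, was that of Muc5b, given above with the mucus genes. Sums of the club cell list ran from 12920 to 35390 CPM in HDM_CP and 21390 to 44040 in HDM_SAL. With 27 libraries all 17 heart muscle genes were negative (median -1.08), 2 of them at an unadjusted p under 0.05. Without PBS_CP 57 the median was -1.09, with 4 genes at that limit and 1 positive member. Their summed level was 87.2 to 151 CPM in HDM_CP, 103 to 255 in HDM_SAL, 99.8 to 294 in PBS_CP and 87.3 to 176.5 in PBS_SAL. Groups overlapped for each of these sums. Genes of 1 cell type vary together with its share in a piece of tissue, and the part of airway or heart content in the interaction values was not tested.

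Structural lung lists had medians between -0.15 and 0.13. Medians were 0.01 for 14 alveolar type 2 genes, -0.15 for 14 alveolar type 1 and transitional genes, 0.06 for 16 endothelial genes and 0.13 for 18 fibroblast and pericyte genes. The von Willebrand factor gene Vwf, of endothelium, gave 0.35 ± 0.13. Mast cell and basophil genes had a median of 0.04 over 8 tested members, immediate early genes -0.05 over 17, unfolded protein response genes 0.08 over 15, and acute phase and epithelial antimicrobial genes 0.13 over 15. Cytotoxic cell and interferon gamma response genes had a median of -0.14 over 19, and B and plasma cell genes 0.19 over 16. Saa3, an acute phase gene, gave 1.27 ± 1.07 (-0.94 to 3.47), an interval that spans 0 widely.

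**Figure D5:**
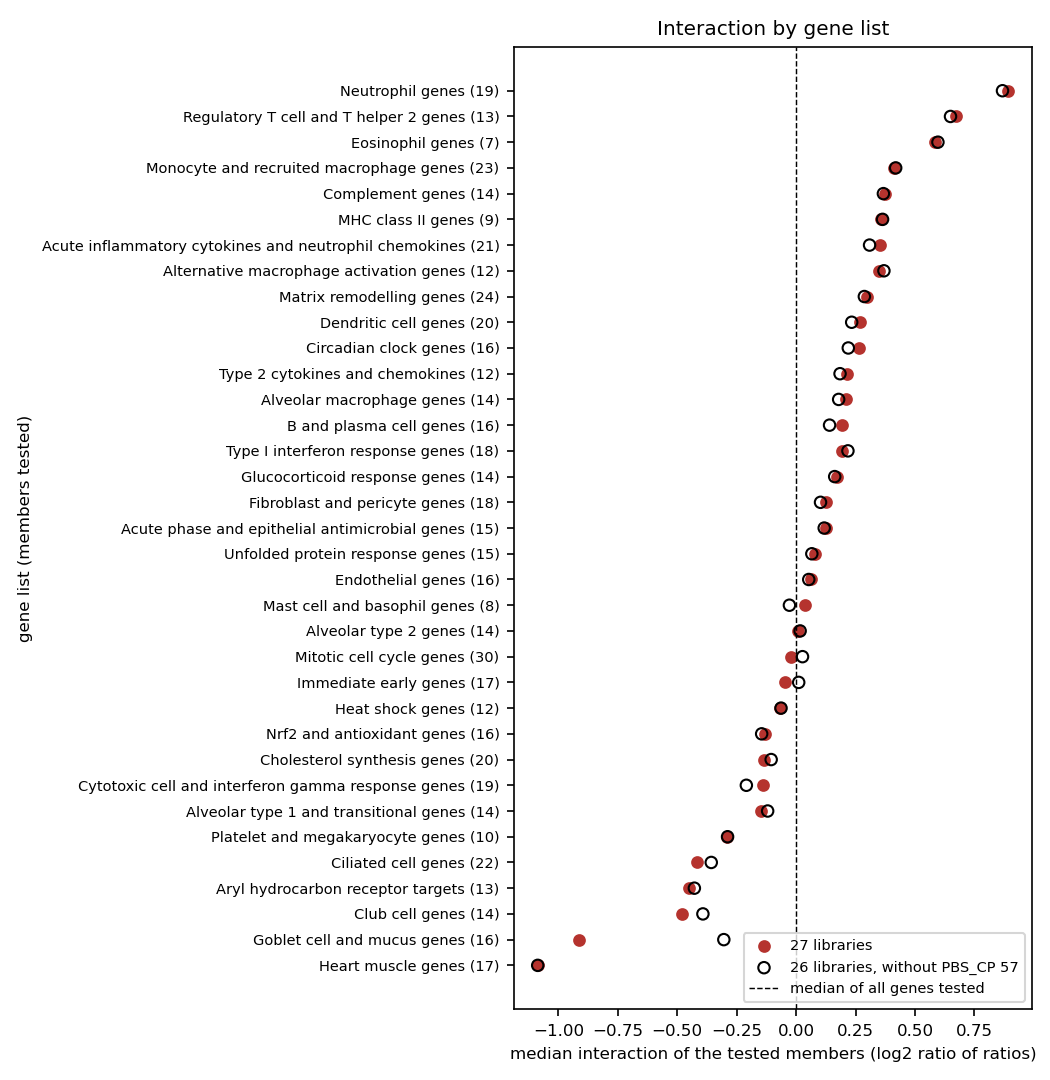
Median interaction of the tested members of 35 gene lists on the log2 scale, with 27 libraries (filled) and with 26 libraries without PBS_CP 57 (open), and the number of tested members in brackets. The neutrophil list is highest at 0.89, the heart muscle list lowest at -1.08, and the goblet cell list moves most when the library is left out, from -0.91 to -0.30.

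DESeq2 was the alternative test that gave calls with all 27 libraries, 6 in all and all positive. Besides Ank, Fkbp5, Zbtb16, Ighg1 and Ighg2b it called Gm21983, a predicted gene with 0 counts in 4 of 7 PBS_SAL, 7 of 7 PBS_CP, 1 of 6 HDM_SAL and 6 of 7 HDM_CP libraries. No fold is given for it, since PBS_CP was at 0 throughout. Without PBS_CP 57 DESeq2 called 2 genes, Gm21983 and Ank.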

How the data were processed

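The series holds 27 whole-lung libraries in 4 groups. Per the submitters' processing notes, STAR, StringTie 2 and the GRCm39 build were used, and the deposited tables' name adds GENCODE M33; the aligner's version and the counter's settings are not given in the sources used here. Values in the authors' estimated count table are whole, and their sums, 56.3 M to 84.5 M, exceed the 20 M read pairs planned, so the unit of 1 count is uncertain, and totals divided by 4 (14.1 M to 21.1 M) served as an alternative. The authors also deposited TPM values, which carry no depth, and these served for marker levels and as an alternative. Use of strand is not stated, and reads of overlapping or antisense genes cannot be separated. Rows without a symbol, 310 of 56941, held 0.0602% of the counts and were kept by identifier.

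Rounded estimated counts entered edgeR 4.0.16 under R 4.3.3: filterByExpr with a minimum count of 10, TMM scaling, 1 model of 4 group means over all 27 libraries, robust quasi-likelihood F tests, two-sided, adjusted by Benjamini-Hochberg over all genes tested with a threshold of 0.05. The standard error is the log2 value divided by the root of F, and intervals are 95% t intervals. For log2 CPM the prior count was 2. The procedure was tested on simulated counts with the same dispersion for every gene and no outlying library. These settings are simpler than the data, so that the simulation does not measure the power of the test here. The 35 gene lists, the 28-gene panel and the naming rule were chosen with earlier results of these data known, so that no list is independent evidence. Named were the 12 genes of smallest p in each direction with 27 and with 26 libraries (mean log2 CPM from 1 upward, without predicted genes, pseudogenes or variable segments), the panel, and from each list the member of smallest p, 79 genes in all; other list members are named as examples by p. Alternatives were median-of-ratios and upper-quartile scaling, no filter, a minimum count of 50, DESeq2 1.42.0, limma 3.58.1 voom with quality weights, limma on log2 TPM with a pseudocount of 1 or 0.1, filtered at a mean of 0.5 or unfiltered, counts divided by 4, no robust dispersions, the run of title numbers as a covariate, each run alone, differences of CPM, and leaving out each library in turn. DESeq2 without PBS_CP 57 was added after seeing the data. Promoter windows are RefSeq's on GRCm38.p6, and gene positions are those deposited.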

Additional observations from a re-analysis of the deposited data

Results flagged for a closer look

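In 24 of 316 sets (79 genes by 4 groups) 1 library lay far from the others of its group by Dixon's test. The test was made on log2 CPM, and chance alone gives such a library in about 1 set in 20. The levels below are in CPM, on which the gaps to the other libraries differ from those on the log2 scale. In PBS_CP, library 57 held 515 CPM of Clca1 (the others 4.10 to 11.1) and 42.6 of Muc5ac (1.87 to 3.11), and the values without it stand in the results. PBS_CP 102 held 172 of Krt19 (124 to 141) and 16.3 of the atrial gene Myl4 (2.77 to 5.91), and PBS_CP 76 held 383 of Lyz1 (187 to 237).

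In HDM_CP, library 66 was low for 4 genes of the allergic airway: Clca1 at 71.2 (464 to 1440), Muc5ac at 13.2 (52.4 to 118), Muc5b at 44.7 (147 to 326) and Retnla at 1370 (3090 to 4710). HDM_CP 45 was low for Sema7a at 80.0 (112 to 122) and Tiparp at 36.8 (44.3 to 46.0).

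In HDM_SAL, library 100 was low for Cyp1b1 at 0.979 (12.5 to 34.8) and Il13 at 0.072 (0.558 to 1.06) and high for Lurap1l at 75.3 (51.9 to 59.3) and Sap30l at 19.6 (16.0 to 17.2). HDM_SAL 99 was high for C3 at 2730 (1340 to 1740), HDM_SAL 54 for Srek1 at 140 (116 to 124), and HDM_SAL 72 low for Thbs3 at 86.4 (103 to 112). In PBS_SAL, library 105 was high for C3ar1 at 22.9 (4.41 to 6.98), Flt3 at 11.2 (6.14 to 7.77) and Snx20 at 18.6 (10.7 to 13.4) and low for Ccl17 at 1.34 (2.53 to 3.59). PBS_SAL 79 was high for Myl4 at 8.02 (3.32 to 4.61), and PBS_SAL 81 low for Ptafr at 6.42 (7.90 to 9.21).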

How the results depend on the processing

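No paired analysis was possible because title numbers are not shared across groups. The interaction gave 0 calls under every scaling, filter, dispersion, limma and covariate setting tried, but 6 under DESeq2 (2 without PBS_CP 57), and 0 to 1 with a library left out, the 1 being Ank without HDM_SAL 72. DESeq2 called 192 genes for CP in HDM mice and 32 in PBS mice, against 1 and 2 in edgeR; the cause was not tested. The filter decided how many genes were tested: at an unadjusted p under 0.05 there were 3249 of 40749 genes with no filter and 1571 of 24629 with it.

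Signs turned for genes whose intervals span 0 or within single runs, with causes not tested. Ccl17 was 0.0343 under DESeq2 without PBS_CP 57, 5.579 as a CPM difference, and -0.614 to 0.358 with a library left out. Il13 was 0.322 on log2(TPM + 1) with and without the filter, 0.0987 on log2(TPM + 0.1) and 0.3829 in CPM, Il6 0.04219 in CPM, and Cyp1b1 0.0109 with voom. Saa3 ran from -0.106 to 2.05 with a library left out, negative without PBS_SAL 104. Values within runs are differences of group means of log2 CPM. Within numbers 45 to 64, Ccl17 was 0.139, Cxcl1 -0.213 and Tiparp -0.114. Within 66 to 81, Ccl17 was 0.595, Cdk1 0.275, Idi1 0.298, Ifng 0.818, Il13 0.656, Il6 0.178, Krt19 0.0148 and Thbs3 0.0231. Within 96 to 105, Alox12 was 0.0134, Cyp1b1 1.56, Il13 0.0539 and Oasl1 -0.0379. At levels below 1 CPM, as for Prg2 in most libraries, depth limits the values.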
